A study of Caenorhabditis elegans with 2 samples.

Results

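The genes described here are 9 Caenorhabditis elegans genes for PUF proteins (puf-3, puf-5, puf-6, puf-7, puf-8, puf-9, puf-11, fbf-1 and fbf-2), out of 19973 annotated protein-coding genes. They were examined for peaks of tagged SNU-23, a worm splicing protein related to a component of the tri-snRNP, in chromatin immunoprecipitation sequencing (ChIP-seq) of whole first-stage (L1) larvae. The genes were chosen by name because one of the strongest peaks of the experiment lies beside puf-9, so their peaks are given as a description and were not tested. A gene was called when its annotated 5' end was at most 500 bp from a peak summit, or when the gene contained the summit. By that rule puf-9 was called in all 4 lists used, puf-6 in the list of 1 replicate, and the other 7 genes in no list. By the same rule the final list called 20.9% of coding genes, the pooled list 40.7%, and replicates 1 and 2 43.1% and 42.9%. No summit by the rule in the pooled list or either replicate list was found for 51.9% of coding genes.

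PUF proteins, named after Drosophila Pumilio and the worm FBF proteins, bind short sequence elements in the 3' ends of messenger RNAs through an array of Pumilio repeats. They lower the translation or the stability of those mRNAs, in part by recruiting the CCR4-NOT deadenylase, which shortens the poly(A) tail. In C. elegans the family is best known from the germ line: FBF-1 and FBF-2 keep germline stem cells from entering meiosis, PUF-8 acts in germ cell proliferation and differentiation, and PUF-3, PUF-11, PUF-5, PUF-6 and PUF-7 act in oogenesis and early embryos. PUF-9 is known from somatic tissue, where it takes part in the repression of hbl-1 at the end of larval development. Newly hatched larvae hold few germ cells, so most nuclei in whole L1 animals are somatic.

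The study has 1 group of 2 biological replicates and no second condition. All animals were hermaphrodites of strain OP528, collected 6 hours after synchronization as L1 larvae starved after bleaching. The strain carries the fosmid transgene wgIs528, which expresses SNU-23 with a C-terminal TY1, EGFP and 3xFLAG tag, together with unc-119(+) as the rescuing marker of its unc-119(tm4063) mutation, and the precipitation used an antibody against GFP. The labels name no change at the endogenous snu-23 gene. In whole larvae, a site bound in few cells and a site bound weakly in all cells cannot be told apart, and the lists hold no expression values with which the stage or tissue could be checked. The values are the authors' signal per peak, in lists on the build ce11: 30000 candidates from each replicate and 30000 from the pooled reads, background included, of which the authors kept 6675 as final peaks by their irreproducible discovery rate (IDR), which scores how well ranks repeat. The scale differs between lists (the median signal was 11.5 and 12.8 in replicates 1 and 2 and 21 in the pooled list), so signals are ranked within a list, and between the replicate lists only the ratio at a peak is given, beside the median ratio of all matched peaks. The files give no read numbers, so the depth is unknown and no value carries a counting error.

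The puf-9 peak is the strongest within 2000 bp of any of the 9 genes, so the sequence under it is shown first. It covers the 300 bases around the summit of the final list, chrX:5841151-5841450 on ce11, plus strand. puf-9 is transcribed from the same strand, and its annotated 5' end lies downstream of the stretch shown. Capitals mark the one match to any of the motifs searched, GAGAGA on the minus strand.
puf-9 peak: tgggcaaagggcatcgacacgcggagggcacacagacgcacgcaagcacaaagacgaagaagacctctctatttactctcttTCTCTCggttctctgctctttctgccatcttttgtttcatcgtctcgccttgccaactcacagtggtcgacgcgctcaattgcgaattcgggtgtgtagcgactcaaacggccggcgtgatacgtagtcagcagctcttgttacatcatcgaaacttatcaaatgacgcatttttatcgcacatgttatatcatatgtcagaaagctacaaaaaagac

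At puf-9 the signal was among the highest of the whole experiment. The gene lies on chromosome X (WBGene00004245, 5841592 to 5845987, plus strand), spans 4396 bp and has 9 exons in 1 annotated transcript. The peak upstream of it had a signal of 691.2 in replicate 1, 920.5 in replicate 2 and 1604.7 in the pooled and final lists. It ranked 31st of 30000 in replicate 1, 15th in replicate 2 and 20th in the pooled list. Both replicates thus placed it in the uppermost part of their lists, within the top 0.103% and 0.05%. Its signal was 59.8 times the median candidate in replicate 1, 71.8 times in replicate 2 and 10.1 times the median of the final list. These are the values for which the genes were chosen, so they support nothing further.

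The summit stood at the same place in both replicates. Relative to the annotated 5' end it lay at -290 bp in replicate 1, -297 bp in replicate 2 and -291 bp in the final list, where negative distances are upstream, a spread of 7 bp. The peak ran from 5840871 to 5841561, a width of 691 bp, and ended 31 bp before the 5' end of puf-9. It was broad beside the whole final list: 129 of the 6675 final peaks (1.93%) were as wide or wider, and the median width was 287 bp. Among the strongest 25 peaks, however, some others on X were wider and some narrower, so this width is not particular to puf-9. In the single replicates the widths were 573 and 616 bp. The ratio of replicate 2 to replicate 1 at this peak was 1.33, against a median of 1.15 over 6593 final peaks matched in both replicates. On the log2 scale that is 0.41 against 0.21, a distance smaller than the standard deviation of 0.39 over peaks, and 75.4% of matched peaks had a lower ratio.

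**Figure D1:**
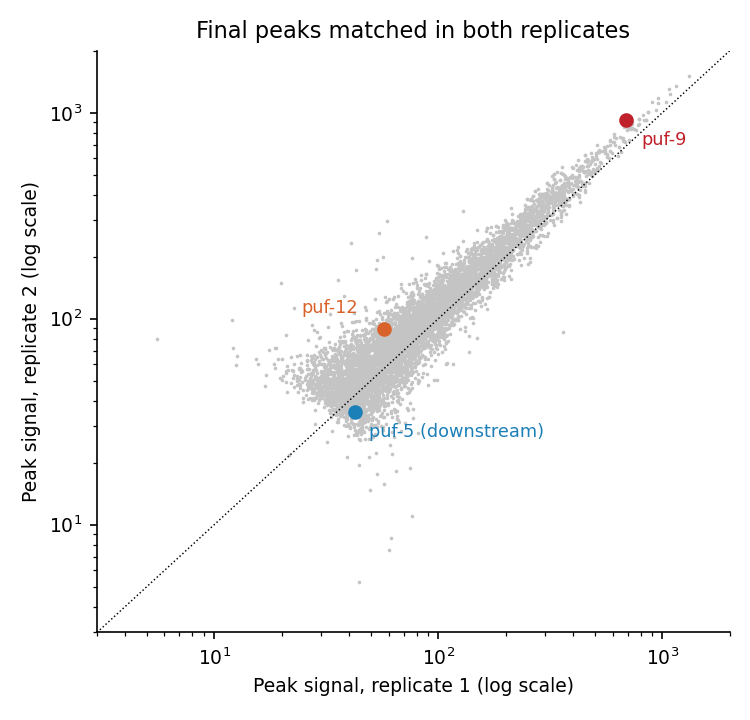
Signal of each final peak in replicate 1 (x axis) and replicate 2 (y axis), both on log scales, with 1 grey point per matched peak and a dotted line of equal signal. The puf-9 peak, at 691.2 and 920.5, sits near the upper end, while the puf-12 peak (57.4 and 89) and the peak downstream of puf-5 (42.4 and 35.2) lie in the dense lower part.

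The puf-9 summit fell inside 2 short non-coding RNA genes that overlap on opposite strands. W06B11.7 (WBGene00196810, 5841170 to 5841350, minus strand, 181 bp) and W06B11.9 (WBGene00199258, 5841185 to 5841361, plus strand, 177 bp) share 166 bp, and the summit was 49 bp downstream of the 5' end of the first and 116 bp downstream of that of the second. Both of these 5' ends are nearer to the summit than that of puf-9, so the peak cannot be assigned to puf-9 alone. With a window of 250 bp, or with each summit given only to the nearest 5' end of any gene, puf-9 was not called and 0 of 9 members were, beside 16.4% and 12.1% of coding genes. Of the 6675 final summits, 503 (7.54%) lay in an annotated non-coding RNA gene of this class, and 100 (1.5%) lay in such genes on both strands. The puf-9 peak is one of 2 among the strongest 25 with genes of this class on both strands. The next coding gene upstream, dct-11, is transcribed away from puf-9. Its 5' end lay 1523 bp from the summit. The one pooled candidate between them, at -1666 bp from the 5' end of puf-9, had a signal of 36.1.

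Inside the puf-9 gene only weak candidates were listed, and they differed between replicates. The pooled list had 4 summits there, with signals from 6.7 to 14.4, at 2445, 2706, 2927 and 3815 bp from the 5' end, of which the first and the last fell in exons and the other two in the last intron. Replicate 1 had 4, with signals of 6.5, 8, 5 and 11.6, and replicate 2 had 3, with signals of 5.5, 7.6 and 17.7. The lowest signal in the final list was 71.7, on the pooled scale. Close to the 3' end of the gene a candidate recurred in all 3 candidate lists. Its summit was inside the last exon in replicate 1 (4370 bp, signal 11.6) and replicate 2 (4376 bp, signal 17.7), and 7 bp beyond the gene in the pooled list (signal 31), just outside the rule.

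**Figure D2:**
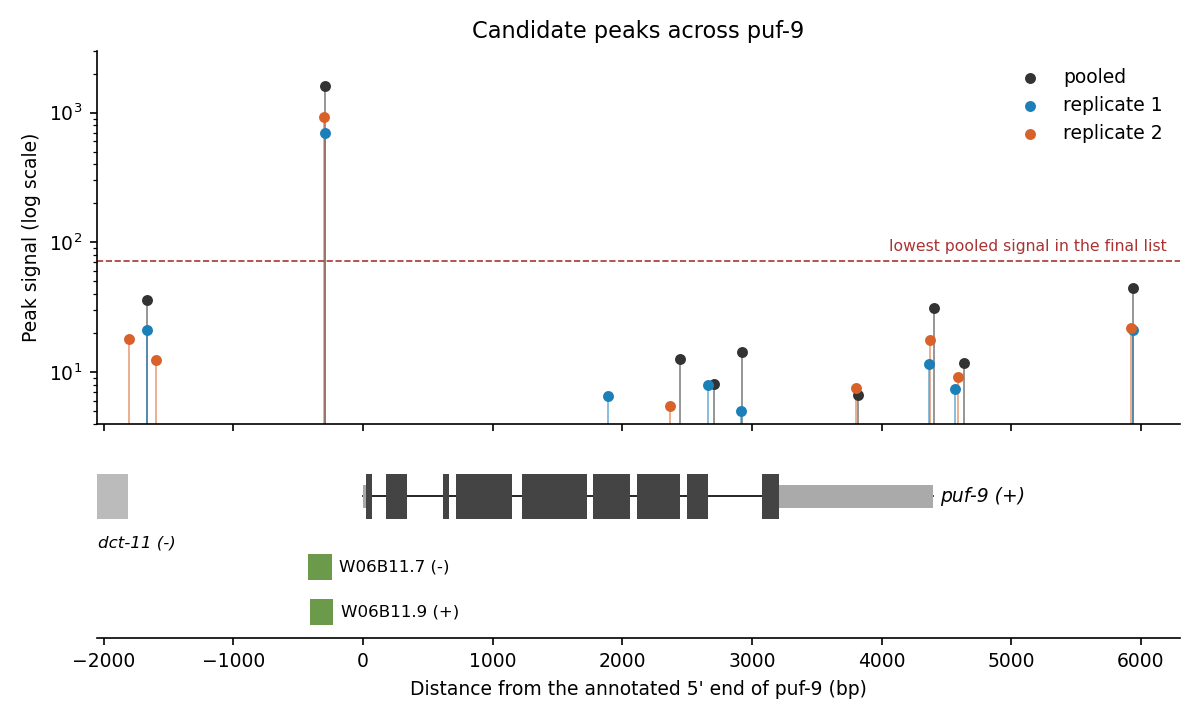
Signals of all candidate summits from about 2 kb upstream to 2 kb downstream of puf-9 (upper panel, log scale, against distance from the annotated 5' end in bp) above the annotated genes (lower panel, dark boxes coding, pale boxes non-coding exon parts, green boxes non-coding RNA genes). The dashed line is the lowest pooled signal in the final list, 71.7, which applies to the pooled points; the peak at -291 bp stands at 1604.7 pooled and the pooled candidates inside the gene at 6.7 to 14.4.

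The puf-9 peak was richer in G and C than most peaks and held 1 match to the 6 motifs searched. In the 300 bp around its summit 47.7% of bases were G or C, and 86.1% of final peaks had a lower share (median 39.7%, quartiles 35.7% and 44.7%). GAGAGA occurred once, on the minus strand, at -68 to -63 bp from the summit. That word was in 49.3% of equal windows at final summits. TTTCAG (the 3' splice site consensus of worms, in 26.9% of windows), TATAAA (24%), CTGCGTCTC (13.4%), TGTANATA (the PUF binding element written as DNA, 4.73%) and GTATTTTA (1.78%) were searched on both strands and had no match in the puf-9 window. No motif contains another, but the ends of GAGAGA and CTGCGTCTC can overlap.

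In the ranking, the puf-9 peak stood between peaks of genes with varied roles. Going up the final list from rank 20, the next 2 peaks that a coding gene could be named for were those of iff-2 (rank 17, signal 1659, summit at -75 bp), which encodes translation factor eIF5A, and mom-1 (rank 14, signal 1744.8, summit inside the gene), the Porcupine homolog of the Wnt pathway. Going down, they were those of rps-1 (rank 22, signal 1578.9, -263 bp) and rpl-12 (rank 23, 1567.9, -32 bp), which encode ribosomal proteins. The peaks at ranks 18, 19 and 21 lay within 500 bp of no coding 5' end and in no coding gene. The last peak inside the limit of 25 by which the family was noticed was at tos-1 (1557.3) and the first outside it at hsr-9 (1555.6). By the same rule, these 25 peaks called 0.0851% of coding genes (17). Of these 25 strongest peaks, 11 (44%) lay on X, which held 20.3% of all final peaks.

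The other 8 PUF genes had no final peak by the rule. The count of 1 of 9 in the final list stands beside 20.9% of all coding genes (4181 of 19973), and beside 21.1% of the 6976 coding genes whose length is within the range of the family, 1856 to 4396 bp. In the pooled candidates 1 of 9 was called, puf-9, beside 40.7% of coding genes. In replicate 1 puf-6 and puf-9 were called, beside 43.1%, and in replicate 2 puf-9 alone, beside 42.9%. In the final list the share was 22.3% of coding genes on X, the chromosome of puf-9, and 19.2% and 19.4% on II and IV, where the other members lie. With 5' ends only it was 16.8%, and among the strongest 6675 candidates of replicates 1 and 2 it was 21.3% and 21%, with puf-9 the one member called each time. In the pooled list 42.9% of genes as long as the members were called. Since the rule used these lists, nothing is read from the counts. With no summit by the rule in any list, 7 of the 9 were like 51.9% of coding genes. Of these 7, 5 (puf-7, puf-8, puf-11, fbf-1 and fbf-2) had no candidate summit within 2000 bp of the gene in any list, as had 38.3% of coding genes.

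**Figure D3:**
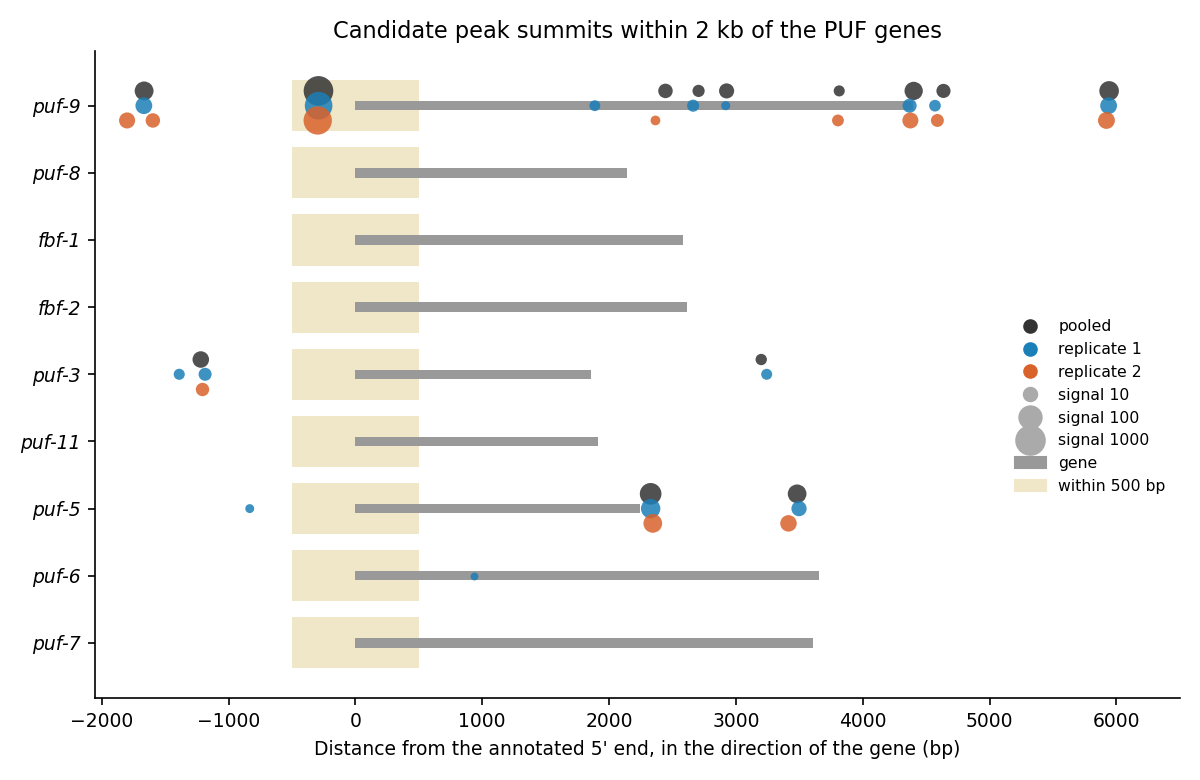
Candidate summits within 2 kb of each PUF gene, against distance from the annotated 5' end in bp, with 1 row per gene, the dot area rising with the logarithm of the signal, and the colours giving the pooled list and the replicates. The large dots at -290 to -297 bp belong to puf-9; puf-8, fbf-1, fbf-2, puf-11 and puf-7 have no dot, and the peak at the 3' end of puf-5 lies beyond the gene.

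fbf-1 and fbf-2, for the stem cell regulators, lie near each other on chromosome II. fbf-1 (WBGene00001401) spans 6078263 to 6080843 and fbf-2 (WBGene00001402) 6088863 to 6091480, both on the minus strand. No candidate lay within 500 bp of either 5' end or inside either gene in any list. The nearest final summit was 16568 bp from fbf-1 (signal 560.1) and 6168 bp from fbf-2 (signal 268.7). The second of these stood at -51 bp from the 5' end of tpp-2, which encodes a tripeptidyl peptidase. It was present in both replicates, at 142.2 and 126.4. It ranked 1761st in the final list and lies at another gene, and nothing is read from it about the missing peaks at fbf-1 and fbf-2.

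Together, puf-8 and puf-9 are the worm genes most like fly Pumilio, and puf-8 was without a peak. It lies on chromosome II (WBGene00004244, 7296110 to 7298247, minus strand). The nearest final summit was 3631 bp away, with a signal of 358.7 in the final list, 194.5 in replicate 1 and 166.2 in replicate 2. That summit was at -223 bp from the 5' end of cul-4, a cullin gene. Coding sequence of puf-8 and puf-9 was 48.4% identical, with no shared run longer than 18 bp. That is close to the 47.9% found over the 500 bp upstream of the 2 genes.

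Of the oogenesis genes, puf-5 had the only final peak nearby, and it lay on the far side of the gene. puf-5 is on chromosome II (WBGene00004241, 8575541 to 8577787, plus strand). A peak with a signal of 42.4 in replicate 1, 35.2 in replicate 2 and 82.1 in the final list had its summit 82 bp beyond the 3' end of puf-5. It was at -180 bp from the 5' end of the next gene, F54C9.9. It ranked 6027th of the 6675 final peaks, near the lower limit, and 5729th in replicate 1 but 7335th in replicate 2, which is beyond the first 6675. Its ratio of replicate 2 to replicate 1 was 0.83, and 8.27% of matched peaks had a lower one. The peak's interval reaches into the gene, although its summit does not.

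puf-3 (WBGene00004239, chromosome IV, 13510307 to 13512162, minus strand) lies wholly within afmd-2, which is transcribed from the opposite strand. Its nearest candidate, at -1219 bp from the 5' end, had a pooled signal of 20 and was at 9.4 and 10.1 in replicates 1 and 2. The nearest final summit was 7047 bp away. puf-11 (WBGene00022257, chromosome IV, 6421585 to 6423497, plus strand) had its nearest final summit 6220 bp away, at -113 bp from the 5' end of the exosome gene exos-2, with a signal of 265.6. puf-7 (WBGene00004243, chromosome IV, 5486713 to 5490322, plus strand) was the most isolated, with the nearest final summit 47638 bp away at fem-1 (signal 138.1) and the nearest pooled candidate 10218 bp away (11.2). puf-6 (WBGene00004242, chromosome II, 13039792 to 13043445, minus strand) had 1 candidate in an intron, 937 bp from its 5' end, in replicate 1. Its signal of 4.3 ranked 28764th of 30000, close to the lowest value of 4 in that list, and neither replicate 2 nor the pooled list had it. The nearest final summit was 2886 bp from puf-6, with a signal of 91.1, at -65 bp from the 5' end of F18A11.3.

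Several PUF genes are near-copies of each other. How reads that match more than 1 place were handled is not given in the sources used here, so a missing peak at these copies is uncertain. Coding sequence was 98.5% identical between puf-6 and puf-7, 91.7% between fbf-1 and fbf-2 and 90.2% between puf-3 and puf-11. The 500 bp upstream were 96.2% identical for puf-6 and puf-7, 74.3% for puf-3 and puf-11 and 57.6% for fbf-1 and fbf-2. For less similar pairs the same alignment gave 47.9% (puf-8 and puf-9), 50.2% (puf-5 and puf-6) and 50.1% (puf-5 and puf-7). The longest identical run of each pair is shown because a read that lies wholly inside it matches both copies. All lie in coding exons and are given in the direction of the gene. For puf-6 and puf-7 it has 251 bases, at chrII:13041732-13041982 (minus strand) and chrIV:5488170-5488420 (plus strand). For fbf-1 and fbf-2 it has 210 bases, at chrII:6079540-6079749 and chrII:6090184-6090393 (both minus strand). For puf-3 and puf-11 it has 64 bases, at chrIV:13511416-13511479 (minus strand) and chrIV:6422348-6422411 (plus strand).
puf-6 and puf-7: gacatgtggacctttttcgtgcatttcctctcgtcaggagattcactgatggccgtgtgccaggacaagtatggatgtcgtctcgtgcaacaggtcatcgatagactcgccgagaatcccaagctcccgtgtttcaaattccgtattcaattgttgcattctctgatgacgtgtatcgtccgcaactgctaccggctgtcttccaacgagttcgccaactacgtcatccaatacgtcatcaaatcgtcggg
fbf-1 and fbf-2: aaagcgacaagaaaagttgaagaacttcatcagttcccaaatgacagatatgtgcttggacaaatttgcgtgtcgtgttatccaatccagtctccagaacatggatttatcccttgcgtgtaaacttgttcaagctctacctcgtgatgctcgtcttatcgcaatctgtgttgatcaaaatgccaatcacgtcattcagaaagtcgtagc
puf-3 and puf-11: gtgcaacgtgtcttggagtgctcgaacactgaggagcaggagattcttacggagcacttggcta

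Measured over the whole genome, the repeated sequence was concentrated in these copies. Of the words of 36 bases within 500 bp of the 5' end, 61.5% occurred elsewhere too at puf-7, 54.8% at puf-6, 12.3% at fbf-1, 10.2% at fbf-2 and 1.14% at puf-3. The share was 0% at puf-5, puf-8, puf-9 and puf-11, as at the median coding gene. Over the gene itself it was 61% for puf-7, 59.4% for puf-6, 27.4% for fbf-1, 27% for fbf-2, 4.06% for puf-3 and 3.94% for puf-11. With words of 50 bases the 5' windows of puf-7 and puf-6 were at 48.3% and 41.8%, and those of fbf-1 and fbf-2 at 5.88% and 4.31%. At puf-5, puf-8 and puf-11 no peak was called, and their 5' windows held no repeated word of 36 bases. At the near-copies, puf-6 and puf-7 above all, a missing peak is uncertain. The part of repeated sequence in a missing peak was not tested for any member.

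**Figure D4:**
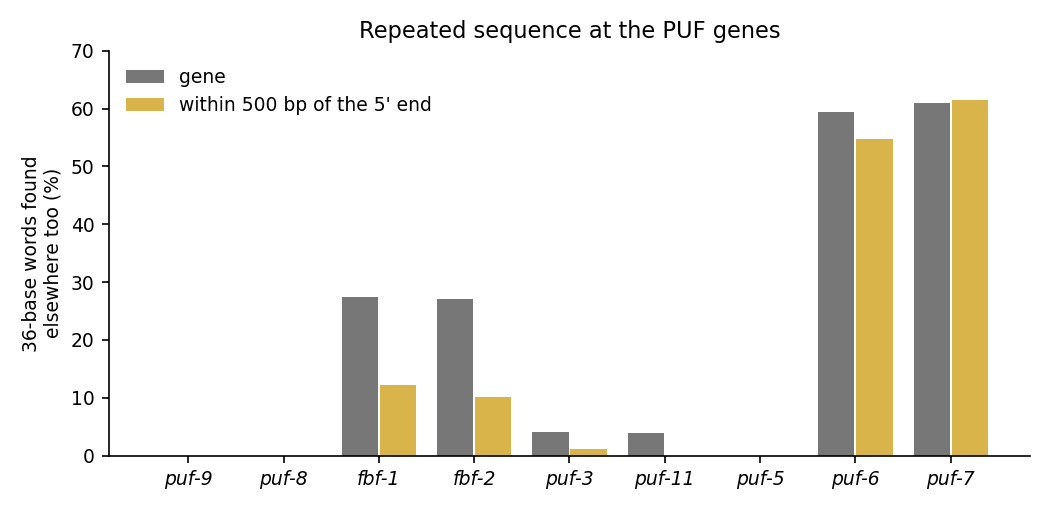
Percent of 36-base words that occur at more than 1 place in the nuclear genome, on either strand, over each PUF gene (grey bars) and within 500 bp of its 5' end (yellow bars). puf-6 and puf-7 stand at 54.8% to 61.5%, fbf-1 and fbf-2 at 10.2% to 27.4%, and puf-5, puf-8 and puf-9 at 0%.

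Of 3 further worm genes with PUF names, 1 was called in the final list, beside 20.9% of coding genes, a share that leaves out pseudogenes. puf-4 and puf-10, annotated as pseudogenes, had no candidate by the rule in any list. puf-12 (chromosome II, 10100310 to 10103061) had a peak with a signal of 57.4 in replicate 1, 89 in replicate 2 and 150 in the final list, at rank 3519. The summit was at -211 bp from its 5' end, and within 500 bp of the 5' ends of the proteasome gene pas-7 and of the non-coding RNA genes ZK945.12 and ZK945.13. The 100 bases around it, at chrII:10100049-10100148 on the plus strand, are set beside those of the peak after puf-5, at chrII:8577819-8577918, to show how the weaker peaks differ in composition, with GAGAGA matches in capitals.
puf-12 peak: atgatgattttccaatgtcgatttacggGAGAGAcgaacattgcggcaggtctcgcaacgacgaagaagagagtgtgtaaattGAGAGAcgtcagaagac
peak downstream of puf-5: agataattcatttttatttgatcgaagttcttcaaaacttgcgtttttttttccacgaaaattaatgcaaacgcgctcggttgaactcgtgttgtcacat

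In 300 bp around the summit, G and C made up 32.7% at puf-12 and 26.7% downstream of puf-5, lower than at puf-9. Only 0.479% of final peaks had a lower share than the second of these. The puf-12 window held GAGAGA at 2 places and TTTCAG at 1, and the window downstream of puf-5 held TATAAA at 3 places over both strands.

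Genes that work with PUF proteins were listed by role, and the CCR4-NOT genes had the highest share with peaks. The lists were chosen with earlier results known and were not tested. Of 8 CCR4-NOT genes, 5 were called in the final list (62.5%, beside 20.9% of coding genes). These 5 were also called in both replicate lists, as were all 12 coding genes of the role lists with a final peak. Since IDR keeps peaks that repeat between replicates, this adds no support. The strongest was at ntl-11, with 508.9 in replicate 1, 539.5 in replicate 2 and 1050.4 in the final list (rank 85, summit at -128 bp). Then came ntl-2 (576.7, -366 bp), ccf-1, for a deadenylase subunit (191.1, -248 bp, shared with trap-4), ntl-4 (116.5, -91 bp, shared with npp-27) and let-711, for the NOT1 scaffold (103.8, -170 bp). The other 3 had candidates in the pooled list and in both replicate lists but no final peak. By the same rule, 40.7% of coding genes were called in the pooled list, and 43.1% and 42.9% in replicates 1 and 2. The strongest pooled signals of these 3 lay inside the genes. They were 51.2 at ntl-3 (12123 bp from its 5' end), 36.3 at ccr-4, for the second deadenylase (3520 bp), and 10.9 at ntl-9 (569 bp). The role lists were not matched to other coding genes for length.

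Of 10 partner protein genes, 2 were called in the final list (20%, beside 20.9% of coding genes). nos-3, a Nanos homolog that binds FBF, had 214.4 in replicate 1, 241.4 in replicate 2 and 456.2 in the final list (rank 717, -58 bp, shared with Y53C12B.1). gld-2, for a cytoplasmic poly(A) polymerase, had 2 final peaks by the rule, the stronger at 11278 bp from its 5' end with a signal of 157.1. lst-1 and sygl-1, whose products act with FBF in stem cells, had no candidate by the rule in any list, like 51.9% of coding genes. Of 17 genes whose mRNAs are known PUF targets, 4 were called (23.5%, beside the same 20.9%). Both shares are near that of all coding genes. They were mpk-1, for the ERK kinase (658.2, inside the gene), egl-4, for a cGMP-dependent kinase (257.7, inside the gene), syp-2, for a synaptonemal complex protein (119.7, -60 bp, shared with cox-16), and cki-2, for a CDK inhibitor (86.3, -102 bp). By the rule, the FBF target gld-1 had a candidate only in replicate 2, and hbl-1, the target of PUF-9, only a pooled one of 6.3 at rank 29856. fem-3 fell just short of the final list, with a pooled signal of 68.9 at rank 6865. The snu-23 gene, which both the genome and the transgene carry, had a signal of 55.4, 62.1 and 119.2 in replicates 1 and 2 and the final list, at -71 bp.

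**Figure D5:**
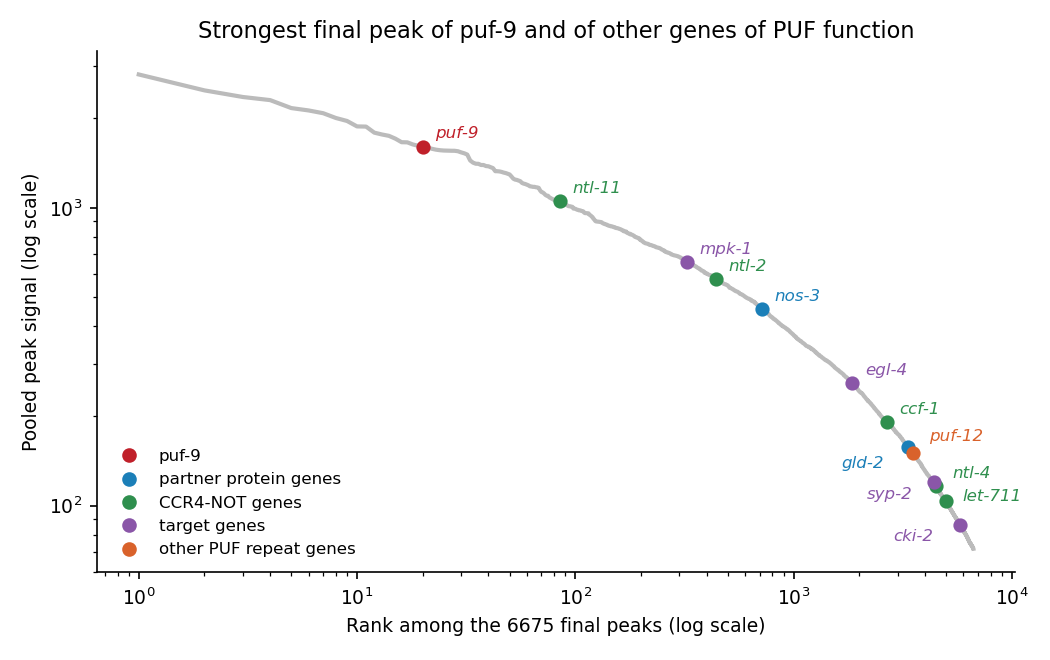
Pooled signal (y axis, log scale) against rank (x axis, log scale) of the 6675 final peaks as a grey line, with the strongest peak of puf-9 and of each called gene of the role lists as coloured points. puf-9 stands at rank 20 and 1604.7, above ntl-11 at rank 85 and 1050.4, and the other points lie between mpk-1 (658.2) and cki-2 (86.3).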

How the data were processed

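Tagged SNU-23 was profiled by ChIP-seq in 2 replicates of L1 larvae. Per the deposited file descriptions, the authors called candidates on each alignment and on both pooled, each with a control alignment, and thresholded them by IDR. Peak caller, aligner and IDR version: not given in the sources used here. The deposited signal value per peak is set against the control by the authors, and the deposited −log10 q-value has a ceiling per list, so signal set the ranks, with ties kept in file order. Only ce11 lists were used for positions; of the ce10 lists only the number of final peaks was used. Genes came from Ensembl release 115 (WBcel235), with puf-4 and puf-10 located through the RefSeq gene table, and sequence from the RefSeq genome of the same assembly, whose chromosome names and coordinates are those of ce11. Positions are 1-based.

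Identity was counted over global alignments (Biopython 1.88). Repeated words were counted over the 6 nuclear chromosomes. Matches were searched in 300 bp at each summit, from 150 bp before it. The calling rule was tested on simulated peaks. No p-value was computed. The members, lists and motifs were chosen with earlier results of these data known. Named genes are the 9 members, genes that share or neighbour a member's peak, the coding genes next to puf-9 in rank, and called genes of the role lists; genes of those lists without a final peak were named after their values were seen. Alternatives were other windows, single replicates, the stronger 3337 peaks, other parts of the gene and overlap rules.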

Additional observations from a re-analysis of the deposited data

How the results depend on the processing

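The call of puf-9 rested on the window: its summit is 291 bp from the 5' end, so 0 of 9 members were called within 250 bp, beside 16.4% of coding genes, and 0 of 9 when a summit counted only for the nearest 5' end of any gene, which is that of W06B11.7. With any overlap of the peak interval by 1 bp, 2 were called, beside 23.1% of coding genes, since the peak beyond puf-5 reaches into that gene. Under each of the other alternatives puf-9 alone was called. They were 1000 bp (24.6% of coding genes), the strongest 6675 candidates of either replicate (1 and 1) and the stronger 3337 final peaks. Further ones were 5' ends only (16.8%) and all transcripts (21%). The nearest coding 5' end and the strongest 8993 pooled candidates (24.7%), as many as the final ce10 list holds, were added after seeing the data. The share of coding genes called fell from 20.9% to 13.1% in the stronger peaks, to 12.1% with the nearest 5' end of any gene and to 13.7% with the nearest coding 5' end, and was 21% to 21.3% in single replicates. The rank of the puf-9 peak was 15 to 31 and its summit at -297 to -290 bp in single replicates. The 12 other coding genes of PUF function called became 11 within 250 bp and 13 within 1000 bp. The depth is unknown, so a missing candidate sets no limit on binding. No paired analysis was possible because there is 1 group.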
